A study of Mus musculus with 7 samples.

Results

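MiR-139 is a microRNA (miRNA) that one mouse hairpin gives in both its forms, mmu-miR-139-5p from the left arm and mmu-miR-139-3p from the right. Both names were found in the table of mature miRNAs by exact name, 2 of 1978 names in all, and each stood on 1 line with whole counts in all 7 libraries. Small RNA was sequenced from splenic CD8+ T cells, sorted by flow cytometry. The mice, neonatal or adult, were gBT-I, a strain with a transgenic T cell receptor, so every group shares that receptor. Cells high for CD44 and CD122 are called virtual memory (VM) here and cells low for both true naive (TN). The groups were neonatal VM (2 libraries), neonatal TN (1), adult VM (2) and adult TN (2). Ages in days or weeks, sex, any treatment and the number of mice behind a library are not given in the labels used here, and nothing says that replicates came from separate animals. The 95% purity gate leaves some cells of other kinds. MiR-139 was selected on the measured levels of miR-139-5p in these libraries, so all values of both arms are given as a description, without a p-value.

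A miRNA hairpin is cut to a short duplex, and Argonaute keeps 1 strand as the guide while the other is usually degraded. The guide finds its targets mainly through the seed, the bases near its 5′ end. MiR-139-5p is the usual guide of its hairpin. In mouse CD8+ T cells grown into cytotoxic cells, miR-139 and miR-150 are both known to fall, and miR-139 has been described as repressing eomesodermin and perforin.

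Both mature sequences are shown because the values below turn on the arms, and the hairpin because it holds the 2 of them. Capitals mark the seed, bases 2 to 8, in the mature sequences and both mature arms in the hairpin (RefSeq, GRCm38.p6, written 5′ to 3′).
miR-139-5p: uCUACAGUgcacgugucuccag
miR-139-3p: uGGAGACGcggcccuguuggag
mir-139 hairpin: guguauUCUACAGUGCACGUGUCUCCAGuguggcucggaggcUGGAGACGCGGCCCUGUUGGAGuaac

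The hairpin has 68 bases and lies at chr7:101475376-101475443 on the plus strand of GRCm38 (mm10). The 5p arm spans chr7:101475382-101475403 and the 3p arm chr7:101475418-101475439. In GENCODE M21 it lies inside Pde2a, the gene of a cyclic nucleotide phosphodiesterase (chr7:101421691-101512827, same strand). Of 12 annotated Pde2a transcripts, 10 span the hairpin, 4 of them protein coding, and it is intronic in all 10. The nearest downstream exon of these transcripts begins 5927 bases away. RNAfold gave the hairpin a minimum free energy of -35.6 kcal/mol, with 19 of the 22 bases of each arm paired to the other arm. The 3p arm is richer in G and C, at 68.2% against 54.5% in the 5p arm. No other of 1679 mature mouse miRNA names in the RefSeq table has the seed of either arm, and 1, miR-6397, shares bases 2 to 7 with miR-139-3p.

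In neonatal cells the 3p arm gave 7.62 to 9.95% of all miR-139 counts, against 1.66 to 2.59% in adult cells. MiR-139-3p took 9.95% and 7.62% of the counts of both arms in neonatal VM and 9.60% in neonatal TN. It took 1.66% and 1.87% in adult VM and 2.34% and 2.59% in adult TN. All 3 neonatal libraries lay above all 4 adult libraries. Within adult cells the VM libraries lay below the TN libraries, and in neonatal cells the TN library lay between the VM libraries. The 95% Wilson intervals, which cover counting error only and treat each read as a molecule of its own, although no molecular identifiers were used, reached down to 6.43% in the neonatal libraries and up to 3.30% in the adult libraries. This share needs no scaling between libraries.

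**Figure D1:**
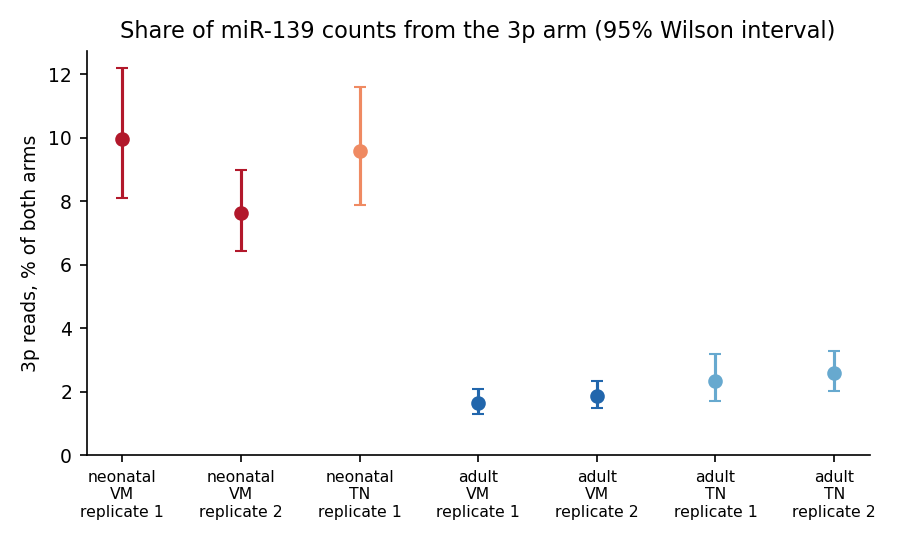
Share of miR-139 counts that came from the 3p arm (y axis, percent of both arms) in each library (x axis), with 95% Wilson intervals. The neonatal libraries sit at 7.62 to 9.95% and the adult libraries at 1.66 to 2.59%, and no interval of one age overlaps one of the other.

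Written as a ratio, the 5p arm had 9.05 and 12.1 counts for each 3p count in neonatal VM, 9.42 in neonatal TN, 59.3 and 52.5 in adult VM and 41.7 and 37.7 in adult TN. The fitted ratio was 4.85-fold lower in neonatal cells, a log2 difference of -2.28 (SE 0.16, additive linear model of age and subset on 7 libraries). Taken within subsets, the log2 difference of neonatal from adult cells was -2.41 in VM and -2.07 in TN. The pooled replicate SD of the log2 ratio was 0.20. Leaving out each library in turn gave -2.41 to -2.14. By subset, VM minus TN, the difference was smaller, at 0.36 (SE 0.16). It was 0.49 between adult VM and adult TN, where the libraries did not overlap, and 0.15 in neonatal cells, where the TN library lay between the 2 VM libraries.

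The difference in level with age was not the same in both arms. MiR-139-5p stood at 371 and 396 CPM in neonatal VM and 267 CPM in neonatal TN, against 1577 and 1397 CPM in adult VM and 856 and 1015 CPM in adult TN. CPM here are library-size normalized counts scaled by TMM factors, which centre the libraries on the bulk of miRNAs. The counts behind these values were 751, 1516 and 857 in neonatal and 3917, 4041, 1586 and 2372 in adult libraries, in the same order. No neonatal library reached the lowest adult one. By group mean the order was neonatal TN, neonatal VM (384 ± 17.5 CPM), adult TN (936 ± 113) and adult VM (1487 ± 127; SD, n = 2 for each of these 3), and no neighbours in that order overlapped. In these bulk samples, fewer cells that make the miRNA and less of it per cell cannot be told apart.

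MiR-139-3p was a rare form throughout. It stood at 41.0 and 32.7 CPM in neonatal VM and 28.3 CPM in neonatal TN, against 26.6 and 26.6 CPM in adult VM and 20.5 and 27.0 CPM in adult TN. These rest on 83, 125 and 91 counts in neonatal and 66, 77, 38 and 63 counts in adult libraries. The 3 neonatal values lay just above the 4 adult ones on this scale, and adult VM and adult TN overlapped. The gap between neonatal TN and the highest adult library is within the replicate SD of the arm, 0.21 on the log2 scale.

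**Figure D2:**
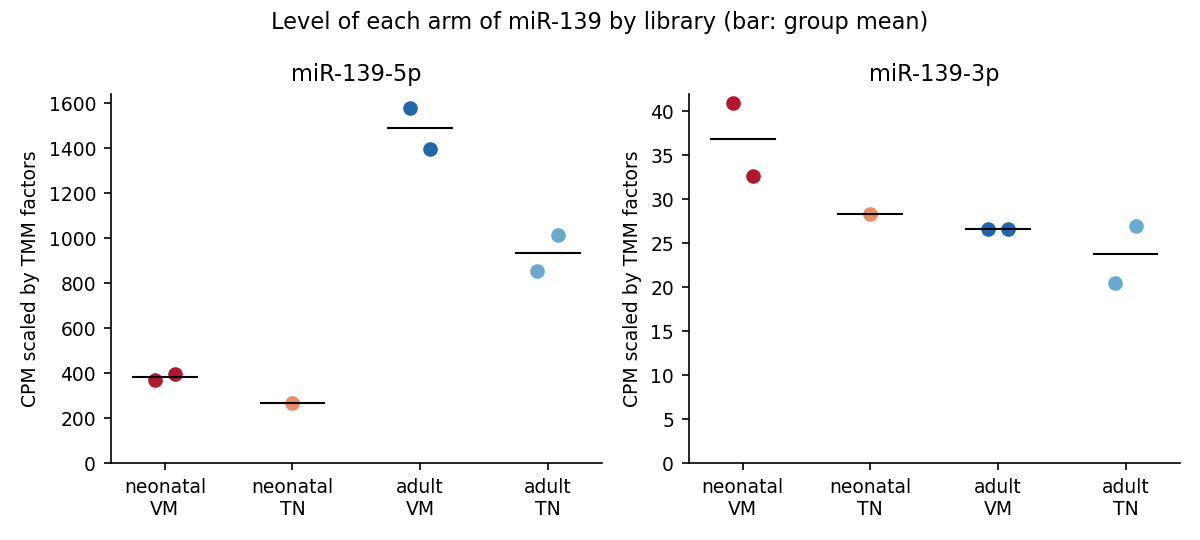
CPM scaled by TMM factors (y axes, from 0) of miR-139-5p (left) and miR-139-3p (right), by group (x axes), 1 point for each library and a bar at the group mean. The 5p arm spans 267 to 396 CPM in neonatal and 856 to 1577 CPM in adult libraries, while the 3p arm spans 28.3 to 41.0 CPM in neonatal and 20.5 to 27.0 CPM in adult libraries.

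With age, taken over both subsets, the fitted log2 fold change of miR-139-5p was -1.90 (SE 0.17, edgeR), a level 3.72-fold lower in neonatal cells. It was -1.81 (SE 0.25) in TN cells and -1.95 (SE 0.20) in VM cells. The interaction term, age in VM less age in TN, was -0.14 (SE 0.30), under its own SE and without a stable sign across scalings. For miR-139-3p the fitted values were 0.38 (SE 0.23) over both subsets, 0.25 (SE 0.38) in TN and 0.46 (SE 0.31) in VM. In TN the sign of the 3p arm depends on the scaling, since upper quartile factors gave -0.06, and on adult TN replicate 1, without which it was -0.05. The median of all 288 miRNAs tested was -0.05 with age. Ordered by that fold change, 21 of the 288 were at or below miR-139-5p, itself included, and 183 were at or below miR-139-3p. The place of miR-139-5p may follow in part from its selection on these levels.

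By subset, miR-139-5p was higher in VM than in TN libraries of the same age. Its log2 fold change was 0.61 (SE 0.16) over both ages, 0.67 (SE 0.19) in adult cells and 0.53 (SE 0.24) in neonatal cells, where TN is a single library. MiR-139-3p had 0.25 (SE 0.23), 0.16 (SE 0.32) and 0.37 (SE 0.38) in the same comparisons. Its value in adult cells was -0.14 without adult TN replicate 1. The age comparisons and the subset comparisons use the same 7 libraries, so their values are not independent of each other.

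**Figure D3:**
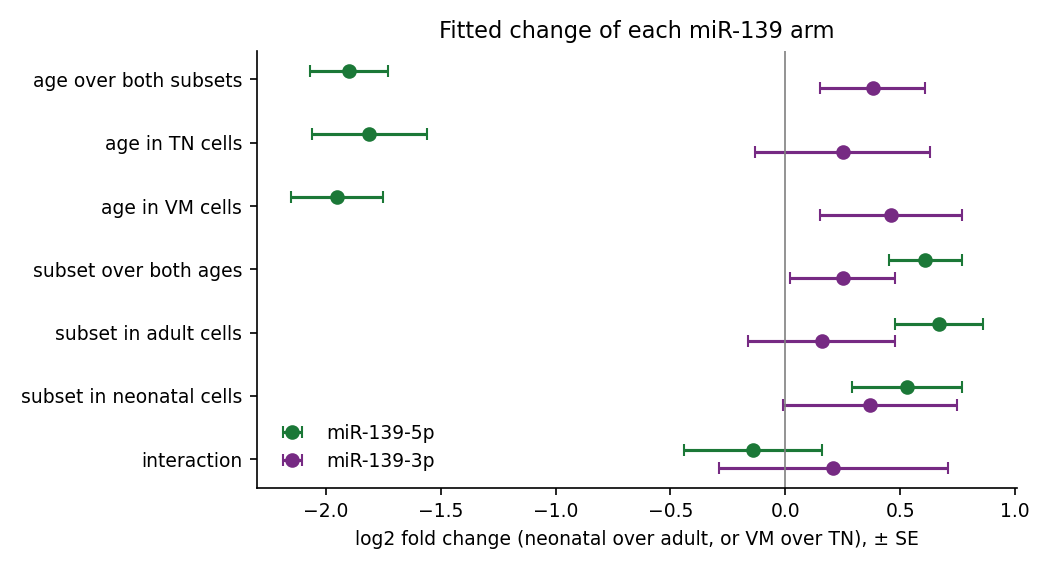
Fitted log2 fold change (x axis, neonatal over adult or VM over TN, ± SE) of miR-139-5p and miR-139-3p in 7 comparisons (y axis). The 5p arm lies between -1.95 and -1.81 in the age comparisons, where the 3p arm lies between 0.25 and 0.46 (-0.06 in TN under upper quartile factors), and both arms lie above 0 in the subset comparisons.

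Libraries held 1577031 to 3278449 counts. Across the libraries the lymphocyte miRNAs miR-150-5p, miR-142a-5p, miR-142a-3p, miR-181a-5p and miR-342-3p, all 5 of them tested, summed to 166051 to 174453 CPM in neonatal VM, 286780 in neonatal TN, 342208 to 379172 in adult VM and 499453 to 592573 in adult TN. MiR-150-5p, part of this sum, itself differed with age. It alone gave 66475 to 77562 CPM in neonatal VM and 62258 in neonatal TN. In adult VM it gave 207898 to 229398 CPM and in adult TN 365659 to 435180. The sum therefore cannot be read as lymphocyte content. Markers of other cells stood far lower, and some differed by age. The 2 endothelial markers, both tested, summed to 54.4 to 75.8 CPM in neonatal VM, 56.9 in neonatal TN, 21.7 to 26.3 in adult VM and 8.09 to 8.99 in adult TN. The 8 stromal and muscle markers, of which 1 was tested and miR-1a-3p, miR-206-3p and miR-214-3p had no count, reached 70.6 CPM in neonatal TN, 35.6 to 47.6 in neonatal VM and at most 28.3 in adult libraries. The 5 erythroid markers, 2 tested, summed to 156 to 178 CPM in neonatal VM, 446 in neonatal TN, 494 to 593 in adult VM and 243 to 325 in adult TN. The 2 myeloid markers, neither tested, reached 15.9 CPM in adult VM and at most 4.18 elsewhere. The 5 neural and epithelial markers, 1 tested and miR-124-3p without a count, reached 30.8 CPM in neonatal TN, 15.8 to 24.0 in neonatal VM and at most 18.9 in adult libraries. Their part in the differences of miR-139 with age was not tested.

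A shift between arms can be set beside other hairpins. Both arms were tested and had counts in every library in 61 hairpins whose arms each stood on 1 line of the table. The log2 arm ratio of neonatal less adult cells was negative in 23 and positive in 38, with a median of 0.32, and the median size was 0.60. The value of mir-139, -2.28, was the second largest in size. MiR-139 was selected on the levels of its 5p arm, which enter this ratio, so its places among hairpins are a description only. With age the fitted log2 fold change was -1.90 in the 5p arm and 0.38 (SE 0.23) in the 3p arm. The 19 hairpins, mir-139 included, whose rarer arm had a total within 2-fold of the 543 counts of miR-139-3p had a median size of 0.54, and among them mir-139 had the largest, 2.28. By subset mir-139 ranked 40 of 61 in size, with 0.36 against a median size of 0.47.

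The one hairpin with a larger age difference was mir-150, whose 5p arm is a main miRNA of resting lymphocytes and targets Myb. Its arm ratio, 5p over 3p, was 103 and 104 in neonatal VM and 54.6 in neonatal TN, against 332 and 646 in adult VM and 309 and 318 in adult TN. Its log2 age difference was -2.30 (SE 0.28), with each library left out in turn giving -2.58 to -2.10. The 2 hairpins thus had the lowest values of the 61, each with all neonatal libraries below all adult ones. In the 3 hairpins with the nearest mean arm ratio to mir-139, the log2 age difference was -0.55 (SE 0.17) for mir-30a, 0.53 (SE 0.35) for mir-20b and -0.20 (SE 0.32) for mir-532. Taken over both subsets, neonatal and adult libraries overlapped in each of them, but mir-30a was lower in neonatal libraries within each subset. Its ratio was 19.3 and 21.8 in neonatal VM, against 38.8 and 32.7 in adult VM, and 12.8 in neonatal TN, against 14.3 and 14.4 in adult TN.

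**Figure D4:**
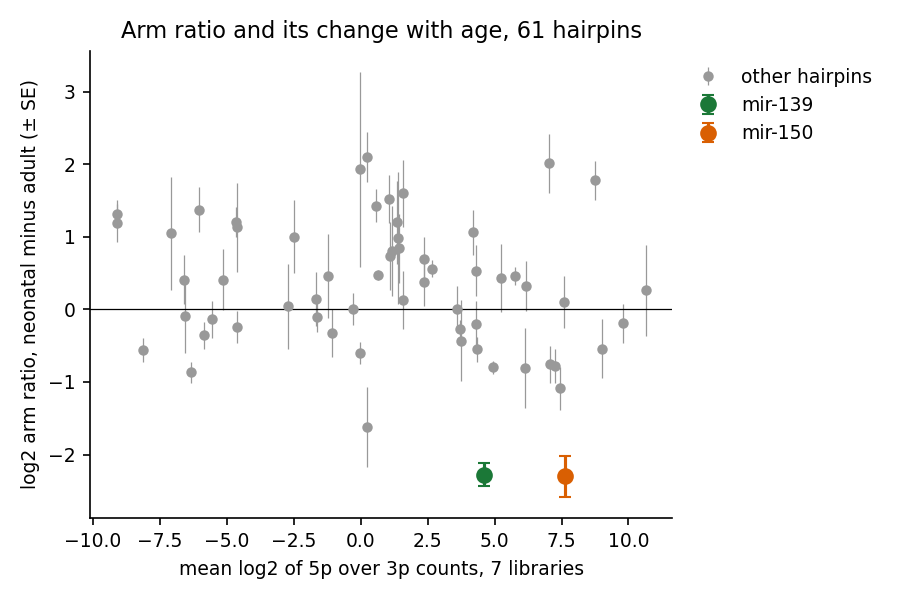
Mean log2 ratio of 5p over 3p counts in 7 libraries (x axis) and its difference, neonatal minus adult (y axis, ± SE of the additive linear model), for 61 hairpins. The mir-139 point at -2.28 and the mir-150 point at -2.30 lie lowest. The mir-139 hairpin was selected on the level of its 5p arm.

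The hairpins with the widest range of arm ratio over libraries were mir-423, mir-18b and mir-150. In mir-423 the range of 5.23 on the log2 scale came from adult VM replicate 2, which had 0.0522 5p counts per 3p count, against 0.969 to 1.95 in the other 6 libraries. That library was close to its partner in the miR-139 arm ratio, at 52.5 beside 59.3. In mir-18b the ratio rests on 3 to 13 counts of an arm in the adult TN libraries.

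MiR-139-5p and miR-150-5p were then compared directly, as a ratio of counts within a library, which needs no scaling. MiR-139-5p had 4.79 and 5.96 counts per 1000 of miR-150-5p in neonatal VM and 4.28 in neonatal TN. In adult VM it had 6.87 and 6.72, and in adult TN 2.34 and 2.33. Adult TN thus had the lowest ratio and adult VM the highest, with neonatal cells between them. As log2 differences, adult VM exceeded adult TN by 1.54 and neonatal VM exceeded neonatal TN by 0.32. Neonatal TN exceeded adult TN by 0.87, whereas neonatal VM was below adult VM, at -0.35.

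Behind this ratio stand levels that went the same way with age and apart by subset in adult cells. MiR-150-5p stood at 77562 and 66475 CPM in neonatal VM and 62258 CPM in neonatal TN, against 229398 and 207898 CPM in adult VM and 365659 and 435180 CPM in adult TN. It fell with neonatal age (log2 fold change -2.01, SE 0.25, edgeR adjusted p = 2.59e-04). By subset over both ages it did not pass (-0.46, SE 0.24, edgeR adjusted p = 0.179). That subset value was -0.88 without the neonatal TN library, when miR-150-5p passed.

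Among the 14 miRNAs listed as high in resting T cells, miR-139 left out, 6 fell in neonatal cells and 8 did not pass, with a median log2 fold change of -0.50. In the same comparison 27.4% of all tested miRNAs were called lower, 26.4% higher and 53.8% in either direction (edgeR adjusted p at most 0.05). Both lists were chosen with earlier results of these data known. Their counts beside these shares, with age or by subset, are therefore a description only. The largest falls were in miR-29a-3p, a repressor of T-bet (-2.84, edgeR adjusted p = 9.04e-06), miR-101a-3p (-2.14, edgeR adjusted p = 5.07e-04) and miR-150-5p. Of 19 activation miRNAs, 18 were tested, 5 rose and 3 fell, and 10 did not pass, with a median of 0.05. MiR-31-5p (4.64), miR-210-3p, the hypoxia-responsive miRNA (2.92), and miR-146b-5p (1.77) rose most, and miR-155-5p, processed from Bic (-1.36), miR-221-3p (-0.99) and miR-92a-3p (-0.48) fell. Library totals gave 8 activation miRNAs higher and 1 lower, beside 119 higher and 53 lower of all 288 tested. The 100 CPM filter gave 3 activation miRNAs higher, beside 47 of 153 tested. Without adult TN replicate 1, 3 activation miRNAs rose, beside 58 of all 282 tested. Without the neonatal TN library 5 activation miRNAs fell, beside 87 of all 285 tested. MiR-146b-5p did not pass without adult TN replicate 1 or 2 (1.38 and 1.43), and without the neonatal TN library it passed with a value of 0.67. In the same list miR-221-3p lost its call under library totals (-0.54). MiR-92a-3p lost it under library totals (-0.03), the 100 CPM filter, the replicate block and without adult VM replicate 1 or neonatal VM replicate 2.

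By subset 24.7% of tested miRNAs were called, 10.8% higher and 13.9% lower in VM cells. Of the 14 resting miRNAs 3 rose in VM cells, miR-101a-3p (1.48), miR-29c-3p (1.05) and miR-30e-5p (0.80), and 11 did not pass, with a median of 0.34 against 0.01 for all tested. Of the 18 activation miRNAs 4 rose, led by miR-21a-5p (2.21), miR-146a-5p, a brake on NF-kB (1.82), and miR-155-5p (1.09). MiR-132-3p fell (-2.24), 13 did not pass, and the median was 0.72. Several of these subset calls, which come from all 7 libraries, were lost when a single library was left out. MiR-101a-3p, miR-146a-5p (1.48 and 1.71) and miR-155-5p did not pass without adult TN replicate 1 or 2. MiR-30e-5p did not pass without either of these, without either adult VM library, without neonatal VM replicate 2 or with the replicate block. MiR-221-3p, which also rose (0.93), did not pass without adult TN replicate 1 or 2, adult VM replicate 2 or neonatal VM replicate 2. No alternative that tested miR-21a-5p, miR-29c-3p or miR-132-3p lost its call. Without either adult TN library, 1 resting and 1 activation miRNA rose. Over all 282 miRNAs then tested, 8 rose without replicate 1 and 7 without replicate 2. Without the neonatal TN library 7 resting miRNAs rose and 2 fell, and 12 activation miRNAs rose and 2 fell. Over all 285 miRNAs then tested, 66 rose and 45 fell. Without neonatal VM replicate 1, 5 resting and 5 activation miRNAs rose, beside 20 of all 279 tested. Library totals and upper quartile factors each gave 7 resting and 9 activation miRNAs higher, beside 59 and 58 of all 288 tested. DESeq2 gave 6 resting and 8 activation miRNAs higher, beside 48 of 288. The number that rose over all tested miRNAs, 31 of 288 as reported, thus changed in these runs as well.

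Profiles over the 7 libraries were compared with that of miR-139-5p by Pearson's r of log2 CPM, among 165 other tested miRNAs that averaged 50 CPM or more. The highest were miR-374b-5p (0.975), miR-3535 (0.965), miR-1843a-5p (0.964), miR-29c-3p (0.963) and miR-1843a-3p (0.960). The last and the third are arms of one name, both low in neonatal cells. MiR-374b-5p, the closest, stood at 142 and 141 CPM in neonatal VM and 93.4 in neonatal TN, against 351 and 442 CPM in adult VM and 257 and 247 in adult TN, the same order of groups as miR-139-5p. The lowest r were those of miR-351-5p (-0.989), miR-27b-5p (-0.966), miR-31-5p (-0.964), miR-322-5p (-0.951) and miR-298-5p (-0.951). MiR-351-5p stood at 372 and 414 CPM in neonatal VM and 770 in neonatal TN, against 33.0 and 28.0 CPM in adult VM and 59.9 and 68.5 in adult TN. MiR-150-5p had 0.828 and miR-139-3p, below that mean, -0.549. The libraries fall into 2 age clusters and share their scaling, so r here mostly ranks likeness of the age difference and carries no p-value.

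**Figure D5:**
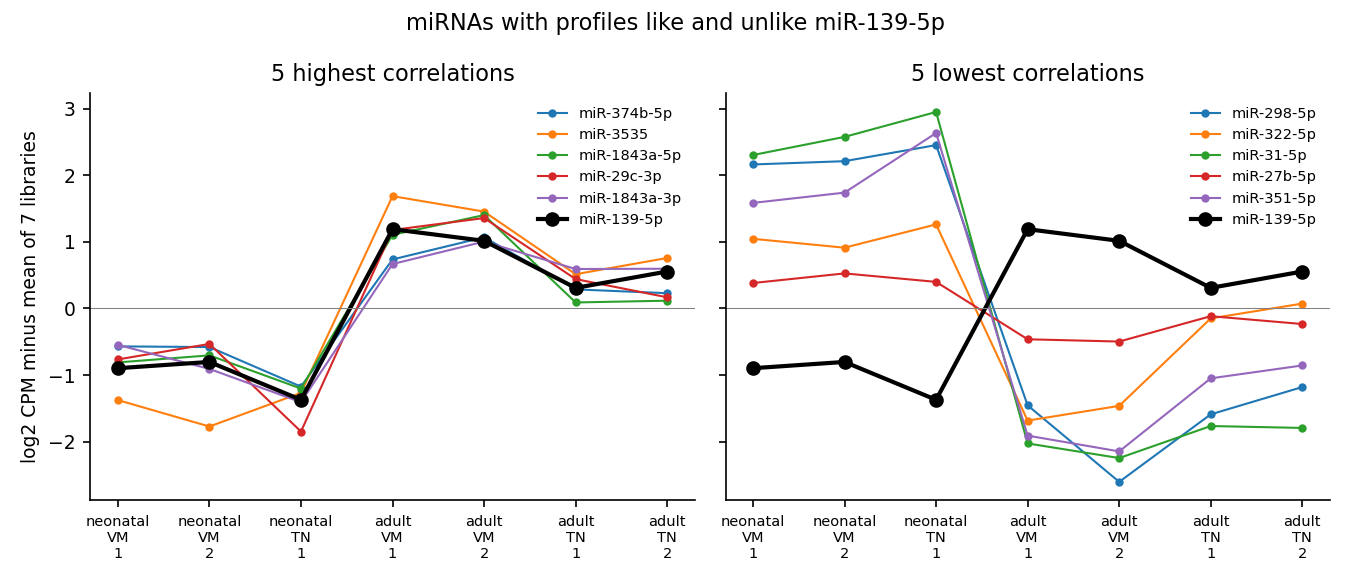
Log2 CPM less its mean over 7 libraries (y axis) in each library (x axis) for miR-139-5p (black) with the 5 miRNAs of highest r (left) and lowest r (right). The left lines are low in the 3 neonatal libraries and highest in adult VM, as miR-139-5p is, and the right lines are high in the neonatal libraries.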

How the data were processed

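Estimated counts were deposited as 1 table, with a line for each arm of each precursor, 2128 lines and 1978 mature names in all. Per the submitters' processing notes the build was mm10, which is GRCm38; aligner and counter are not given in the sources used here. Libraries were made with the Illumina TruSeq small RNA kit per the labels' protocols. Counts were summed per mature name and rounded. The 288 miRNAs that reached 10 CPM (15.8 to 32.8 counts) in 2 libraries or more were fitted in edgeR 4.0.16 (R 4.3.3) with TMM factors and the robust quasi-likelihood test, with Benjamini-Hochberg adjustment at 0.05. Age and subset came from an additive model, and values within a subset or age from a cell means model. Each edgeR SE is the size of a fitted log2 fold change over the square root of its F value in that test. The SE of an arm ratio comes from the additive linear model of log2 count ratios. Where replicates are not stated to be separate animals, p-values measure only how far apart these libraries lie, which may be technical spread.

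The members and lists were chosen with earlier results of these data known. Named miRNAs were both arms, miR-150-5p, the 5 highest and 5 lowest r, up to 3 largest calls a direction in the resting T cell and T cell activation lists, and the hairpins nearest in arm ratio or widest in range; 6 marker lists (lymphocyte, erythroid, myeloid, endothelial, stromal and muscle, neural and epithelial) were summed. Alternatives were other scalings and filters, DESeq2 1.42.0, the largest line per name, a replicate block and each library left out. Hairpins were folded with RNAfold 2.7.2. Reads, isomiRs and targets were not analysed here.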

Additional observations from a re-analysis of the deposited data

Results flagged for a closer look

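The ratio of miR-139-5p to miR-150-5p counts went opposite ways with age in the 2 subsets. Its log2 difference was -0.35 for neonatal VM less adult VM, with both neonatal libraries below both adult ones, and 0.87 for neonatal TN less adult TN, with the 1 neonatal library above both adult ones. That difference between subsets was not tested, because miR-139-5p was chosen with its values known. By level, the fitted log2 age difference of miR-139-5p was -1.95 in VM and -1.81 in TN. That of miR-150-5p differed more between the subsets, at -1.60 in VM and -2.69 in TN.

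The interaction of age and subset is given as log2 fold changes for miR-150-5p, miR-146a-5p and miR-146b-5p, picked from the named miRNAs for it. The share of all tested miRNAs with such an interaction was not counted. Neonatal TN is 1 library in this fit, so the spread comes from the other groups and that library is assumed to vary like them. No p-value is given for that reason. MiR-150-5p had 1.08 (SE 0.26), miR-146a-5p had -1.66 (SE 0.34) and miR-146b-5p had -2.65 (SE 0.39).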

How the results depend on the processing

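The age differences of miR-139-5p and of the arm ratio kept their sign in every alternative run. Scaling moved the size of the first. With library totals miR-139-5p had -1.45 with age, -1.44 in TN, -1.45 in VM, 0.77 by subset and 0.77 in neonatal cells, and miR-139-3p had 0.83, 0.62 and 0.97 with age over both subsets, in TN and in VM and 0.62 by subset in neonatal cells; the median over all tested moved by 0.45 with age and 0.16 by subset. Calls were then 119 higher and 53 lower with age and 59 higher and 27 lower by subset. With upper quartile factors miR-139-5p had -2.12 in TN, 0.75 by subset and 0.90 in neonatal cells, miR-139-3p had -0.06 in TN, 0.75 by subset in neonatal cells and 0.62 for the interaction, and calls by subset were 58 higher and 25 lower. Without a filter miR-139-5p had -2.04 with age and -1.99 in TN; with a 100 CPM filter, which miR-139-3p did not pass, it had -1.73 with age, -1.73 in VM and 0.53 by subset in adult cells. Its interaction, -0.14 as reported, was 0.26 with upper quartile factors, 0.01 with the 100 CPM filter and 0.00 with RLE factors, library totals and DESeq2.

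With each library left out in turn, miR-139-5p ranged from -2.01 to -1.86 with age, -2.05 to -1.81 in TN, -2.0 to -1.87 in VM, 0.46 to 0.67 by subset, 0.43 to 0.74 in adult cells, 0.49 to 0.65 in neonatal cells and -0.14 to 0.06 for the interaction. MiR-139-3p ranged from 0.24 to 0.49, -0.05 to 0.34, 0.32 to 0.63, 0.10 to 0.39, -0.14 to 0.32, 0.29 to 0.60 and 0.13 to 0.47 in the same order. For both arms the ranges in TN, in neonatal cells and for the interaction hold no run without the neonatal TN library. These comparisons cannot be made without it, so their dependence on that library is not covered. The arm ratio ranged from -2.41 to -2.14 with age and 0.28 to 0.49 by subset, and the ratio to miR-150-5p from -0.35 to 0.34 and 0.92 to 1.54, around 0.14 and 1.05. The sign of its age value turned without the neonatal TN library. MiRNAs called numbered 155 with age (115 to 158) and 71 by subset (18 to 111).

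The 100 CPM filter, with 153 miRNAs tested, called 79 and 41. With the replicate number as a replicate block, 140 and 42 were called and miR-139-5p had -1.89 with age. Deviations of same-numbered libraries correlated at 0.138, -0.16 and 0.0165 over the 3 pairs of groups. With 2 libraries in each of these groups, that cannot decide whether same-numbered libraries share animals or handling, which the labels do not say. For other moved values the cause was not tested. MiR-139-3p rests on 38 to 125 counts a library, which limits the precision of the arm ratio.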
